A study of Mus musculus with 24 samples.

Results

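The miR-15/16 family and the X-linked cluster of miR-322, miR-503 and miR-351 were followed through the livers of 24 mouse samples. The set holds 9 mature microRNAs (miRNAs) chosen by name: mmu-miR-15a-5p, mmu-miR-15b-5p, mmu-miR-16-5p, mmu-miR-195a-5p, mmu-miR-497a-5p, mmu-miR-322-5p, mmu-miR-322-3p, mmu-miR-503-5p and mmu-miR-351-5p. The prefix mmu, for mouse, is left out from here on except in a few places. Of these 9, 8 have a row in the table of 1908 names, and all 8 were among the 421 miRNAs with enough reads to be tested. No row carries the name miR-497a-5p, and miR-497a-5p is not analysed here. A row named miR-497-5p is listed at 0 in all 24 libraries. Rows named miR-142-3p, miR-142-5p and miR-486-5p, which are abundant miRNAs of blood cells, are listed at 0 in all 24 libraries as well, so a 0 under such a name does not show absence.

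The samples form 3 groups of 8, all liver of C57Bl/6J mice. AM132 mice were made obese on a high fat diet for 11 weeks and then received an antisense oligonucleotide of 16 bases, built with locked nucleic acid (LNA), against mature miR-132. AM608 mice had the same diet and an LNA oligonucleotide of 15 bases against miR-608, a primate miRNA chosen as a control because it has no predicted complement in the mouse. Both oligonucleotides were given into a vein at 3.3 mg/kg on 3 days in a row, and livers were taken 7 days after treatment. RCD mice were lean, age matched and on regular chow, and no injection is recorded for them. The study holds no uninjected obese group, so in AM608 against RCD the diet and the injection cannot be told apart. AM608 libraries enter both AM132 against AM608 and AM608 against RCD, and those comparisons therefore share samples. The labels do not tie each library to its own animal, so p-values describe only how much these samples vary, which may be technical.

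A miRNA is cut from an RNA hairpin that can yield a mature strand from each arm, called 5p and 3p, and one of them usually enters Argonaute as the guide. Bases 2 to 8 of the guide, the seed, do most of the pairing with target messenger RNAs, so miRNAs with one seed can repress many of the same messages. The miR-15/16 family is known for restraining the cell cycle and survival, with cyclin D1, cyclin E1 and BCL2 among its well-studied targets. In hepatic stellate cells of the rat, miR-15b and miR-16 act on Bcl2. miR-195a and miR-497a are a second pair of the family, known for stopping the cell cycle of heart muscle after birth. miR-322 and miR-503 are made from 1 X-linked transcript, rise when muscle cells differentiate and repress the phosphatase Cdc25a. miR-351 lies in the same cluster but carries the seed of the miR-125 family.

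The mature sequences show which members could share targets. All 9 were matched by name in the RefSeq miRNA table (GRCm38.p6). They are printed 5′ to 3′ with the seed in capitals.
miR-15a-5p: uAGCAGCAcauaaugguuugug
miR-15b-5p: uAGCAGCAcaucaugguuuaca
miR-16-5p: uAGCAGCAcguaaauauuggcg
miR-195a-5p: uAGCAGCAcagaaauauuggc
miR-497a-5p: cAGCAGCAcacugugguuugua
miR-322-5p: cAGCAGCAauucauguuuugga
miR-503-5p: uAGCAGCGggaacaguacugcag
miR-351-5p: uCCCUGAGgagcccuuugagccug
miR-322-3p: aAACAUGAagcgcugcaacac

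The first 6 share the seed AGCAGCA. miR-503-5p differs from it in the last seed base, written AGCAGCG, and the seed of miR-351-5p is that of miR-125a-5p and miR-125b-5p. Beyond the seed the 6 differ: miR-16-5p and miR-195a-5p mismatch at 2 of 21 aligned bases, miR-15a-5p and miR-15b-5p at 4 of 22, and miR-16-5p and miR-15b-5p at 8 of 22. How reads were split between such close relatives is not given in the sources used here, so the values of miR-16-5p and miR-195a-5p are the least certain. Another name with the same seed, miR-195b, had 1 count over the 24 libraries, and miR-6342, miR-6353 and miR-6419 had 0.

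The members come from 4 places in the genome (GRCm38, GENCODE M21 gene models). Mir15a lies at chr14:61632027-61632110 on the minus strand in an intron of Dleu2, a long noncoding RNA gene, and Mir16-1 at chr14:61631880-61631972 overlaps an exon of it. Mir15b at chr3:69009772-69009835 and Mir16-2 at chr3:69009902-69009996 lie on the plus strand in an intron of Smc4, which encodes a subunit of condensin. Mir195a at chr11:70235042-70235135 and Mir497 at chr11:70234717-70234800 lie outside the other annotated genes on the plus strand, with Mir497b on the opposite strand of Mir497. The X-linked hairpins Mir322 at chrX:53054255-53054349, Mir503 at chrX:53053984-53054054 and Mir351 at chrX:53053255-53053353 lie within 1095 bases on the minus strand, outside annotated protein-coding genes. Mir542, Mir450-2, Mir450-1 and Mir450b continue the cluster beyond Mir351.

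Pairs of arms from 1 hairpin turn up repeatedly in the results, so the Mir15b and Mir322 hairpins are shown whole (RefSeq, GRCm38.p6), with the 5p arm and then the 3p arm in capitals.
Mir15b: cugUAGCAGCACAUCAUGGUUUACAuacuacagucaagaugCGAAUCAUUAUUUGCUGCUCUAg
Mir322: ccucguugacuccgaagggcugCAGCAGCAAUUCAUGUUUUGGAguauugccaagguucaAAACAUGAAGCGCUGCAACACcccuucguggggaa

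Libraries held between 5689143 and 8734721 miRNA counts. Levels are counts per 1000000 counts of tested miRNAs (CPM), scaled with TMM factors, which take the trimmed mean of M values between libraries. The target of AM132, miR-132-3p, was listed at 0 in 8 of 8 AM132 libraries, against 13.1 to 36.4 CPM in AM608 and 10.4 to 50.6 CPM in RCD. Liver identity was plain: 4 hepatocyte miRNAs (miR-122-5p, miR-192-5p, miR-194-5p and miR-148a-3p) together held from 493200 to 633200 CPM in AM132 libraries, from 322500 to 498100 CPM in AM608 libraries and from 263000 to 541800 CPM in RCD libraries. RCD library 3 stood apart, with 17.8% of tested miRNAs more than 1 log2 unit above their group median and a summed level of 7 neuronal miRNAs of 2568 CPM, against at most 525 CPM in the other RCD libraries. It also had the highest RCD sums of leukocyte, erythroid, mesenchymal, endothelial and muscle miRNAs, and the lowest hepatocyte and biliary sums. RCD library 8 stood apart for several of the members, as described with them, and values without these libraries are given with the results described below where they bear on a call or a sign.

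The 8 measured members differed widely in abundance, with miR-16-5p highest and miR-503-5p lowest. The sequences are 21 to 24 bases long and each read covers a whole molecule, so CPM needs no correction for length, although kits ligate different sequences with different efficiency. In AM608 the medians were 897 CPM for miR-16-5p, 225 CPM for miR-322-3p, 174 CPM for miR-351-5p and 102 CPM for miR-195a-5p. Below these came miR-15b-5p with 68.1 CPM, miR-15a-5p with 17.2 CPM, miR-322-5p with 13.5 CPM and miR-503-5p with 7.91 CPM. The order by median was the same in AM132 and in RCD. Among neighbours in AM608, the ranges of miR-351-5p and miR-195a-5p overlapped, as did those of miR-15a-5p and miR-322-5p, while the other neighbours did not overlap.

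**Figure D1:**
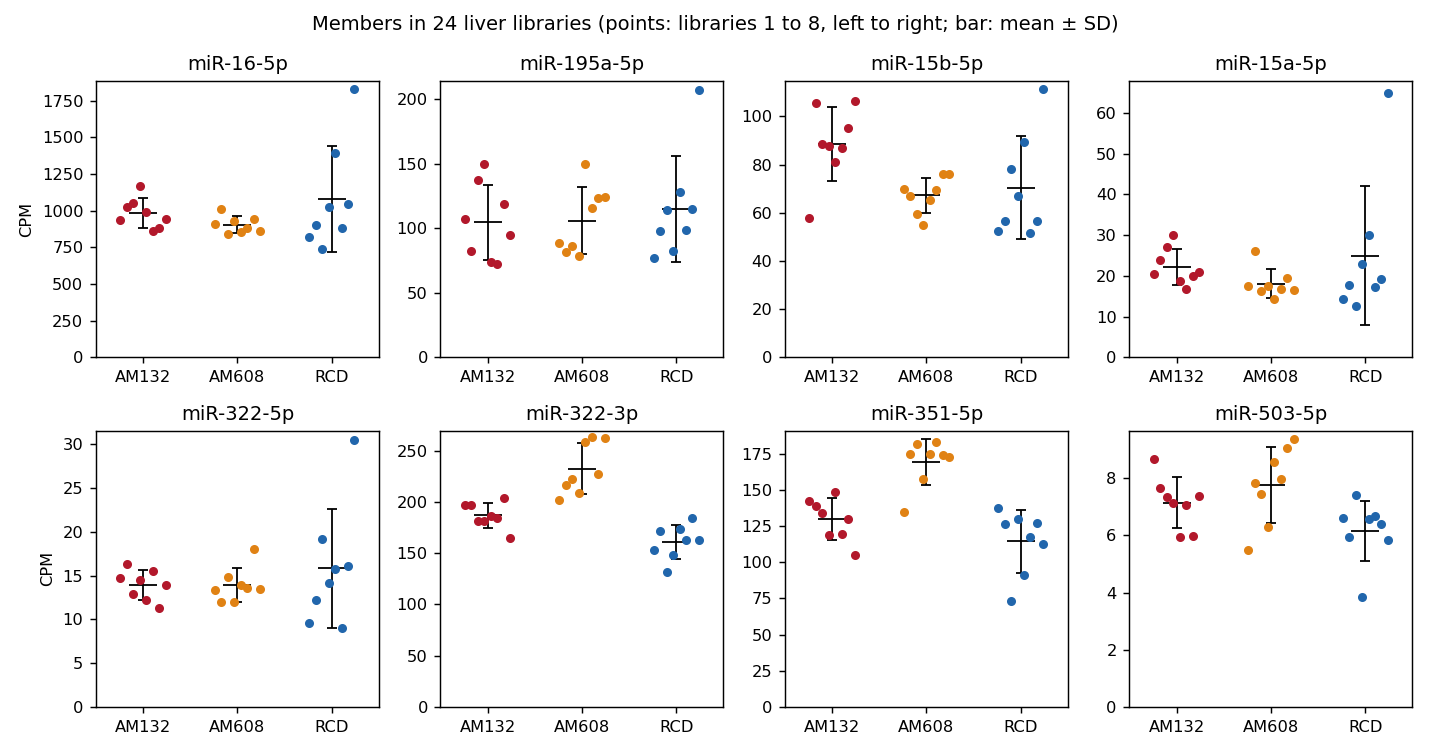
Level of each measured member (CPM, axis from 0) in AM132, AM608 and RCD livers; points are libraries 1 to 8 from left to right and bars give the mean ± SD (n = 8). miR-322-3p and miR-351-5p are highest in AM608, and RCD library 8 is the highest RCD point for miR-16-5p, miR-195a-5p, miR-15b-5p, miR-15a-5p and miR-322-5p.

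AM132 against AM608 asks what the oligonucleotide against miR-132 changed in the obese liver relative to the control oligonucleotide. Of the 8 members measured, 2 were lower in AM132, miR-322-3p and miR-351-5p, and 0 were higher in edgeR's quasi-likelihood test with Benjamini-Hochberg adjustment over the 421 miRNAs (threshold 0.05). Over all tested miRNAs 12.4% were called in this comparison and 8.31% were called lower. The calls over all miRNAs were 17 higher and 35 lower. With counts scaled by library totals in place of TMM they were 8 higher and 83 lower, and the median log2 fold change of all miRNAs moved by −0.25.

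miR-322-3p had 164 to 204 CPM in AM132 (median 185), against 202 to 263 CPM in AM608 (median 225). Of the 8 AM132 libraries, 7 lay below every AM608 library, and AM132 library 7 reached into the AM608 range. The log2 fold change was −0.31 ± 0.077 (SE, adjusted p = 0.00589, edgeR), a ratio of 0.804.

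miR-351-5p, which shares its seed with miR-125, had 105 to 149 CPM in AM132 (median 131.8), against 134 to 183 CPM in AM608 (median 174). The groups overlapped through AM608 library 1, whose 134 CPM lay well below the other AM608 libraries. The log2 fold change was −0.38 ± 0.11 (SE, adjusted p = 0.0176, edgeR), a ratio of 0.766. Both calls were kept whichever single library was left out, with adjusted p of at most 0.0172 for miR-322-3p and 0.0484 for miR-351-5p. Both were lost when miRNAs with few reads were kept in the test (adjusted p = 0.104 for each, edgeR without a filter), at log2 fold changes of −0.32 and −0.39.

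The other arms of the cluster did not follow with a call. miR-503-5p, the closest relative of the AGCAGCA seed, had 5.96 to 8.67 CPM in AM132 and 5.50 to 9.39 CPM in AM608, and the ranges overlapped almost fully. Its log2 fold change was −0.12 ± 0.13 (SE, adjusted p = 0.663, edgeR). Of 11 tested arms of the whole X-linked cluster, 2 were called lower and 0 higher, the median log2 fold change was −0.10, and the median over all tested miRNAs was 0.05. miR-125a-5p and miR-125b-5p, which carry the seed of miR-351-5p at far higher levels (2644 and 3877 CPM as AM132 medians, 2860 and 3727 CPM as AM608 medians), had log2 fold changes of −0.04 and 0.02 and were not called.

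Among the marker lists, 1 marker each was called for hepatocytes, bile duct cells and mesenchymal cells with all libraries and TMM factors. Without RCD library 3, 3 of 4 hepatocyte markers were called higher, and the other counts were the same. With library totals 1 of 4 hepatocyte markers was called higher. Called lower with library totals were 2 of 5 biliary, 2 of 5 mesenchymal and 1 of 4 tested neuronal markers. The summed hepatocyte level had a median of 543500 CPM in AM132 and 392500 CPM in AM608, with 1 of 4 markers called higher. The summed level of the 5 biliary miRNAs ran from 808 to 2355 CPM in AM132 and from 585 to 3158 CPM in AM608, with 1 of 5, mmu-miR-429-3p, called lower (log2 fold change −1.19, adjusted p = 0.0445, edgeR). The 5 mesenchymal miRNAs summed to between 9300 and 14490 CPM in AM132 and between 10190 and 16980 CPM in AM608, with 1 of 5, mmu-miR-199a-3p, called lower (log2 fold change −0.74, adjusted p = 0.0045, edgeR). The median log2 fold change of the mesenchymal list was −0.06. The part of these cell types in the levels of miR-322-3p and miR-351-5p was not tested. In whole liver, fewer cells of a type and less RNA per cell cannot be told apart.

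Guide from here on means the arm with the AGCAGCA seed, also for miR-322-5p, whose 3p arm had more counts in every library. None of the 5 measured guides with the AGCAGCA seed was called between AM132 and AM608. miR-15b-5p came nearest, with 57.7 to 106 CPM in AM132 (median 88.0), against 54.9 to 76.1 CPM in AM608 (median 68.1). Of the 8 AM132 libraries, 7 lay above every AM608 library, and AM132 library 1 was the exception at 57.7 CPM. The log2 fold change was 0.40 ± 0.15 (SE, adjusted p = 0.0795, edgeR), with a 95% interval of 0.11 to 0.69 before adjustment. Without AM132 library 1 it was 0.46 (adjusted p = 0.0297, edgeR). It also passed with only these 2 groups in the fit (adjusted p = 0.0208, edgeR) and without RCD libraries 3 and 8 (adjusted p = 0.0322, edgeR). With counts scaled by library totals the log2 fold change was 0.15 (adjusted p = 0.648, edgeR).

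miR-16-5p, the most abundant family member, had 858 to 1171 CPM in AM132 (median 970), against 841 to 1014 CPM in AM608 (median 897). The ranges overlapped, and the log2 fold change was 0.12 ± 0.13 (SE, adjusted p = 0.668, edgeR), with a 95% interval of −0.14 to 0.38. Its sign turned with library totals, to −0.12. miR-15a-5p had 16.8 to 29.9 CPM in AM132 and 14.3 to 26.0 CPM in AM608, a log2 fold change of 0.30 with a 95% interval of −0.19 to 0.79. miR-195a-5p had 72.3 to 150 CPM in AM132 and 78.5 to 149 CPM in AM608, and miR-322-5p had 11.3 to 16.3 CPM in AM132 and 11.9 to 18.03 CPM in AM608. Their log2 fold changes were −0.020 and 0.0012, with 95% intervals of −0.40 to 0.36 and −0.36 to 0.36.

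AM608 against RCD sets the obese, control-injected liver beside the lean one. Again 2 of the 8 members were called, miR-322-3p and miR-351-5p, both higher in AM608, against 28.7% of all tested miRNAs called in either direction and 13.5% called higher. Of 11 arms of the X-linked cluster, 4 were called higher and 0 lower, with 5 higher without RCD library 3, 4 without RCD library 8 and 5 without both. Their median log2 fold change was 0.38, against −0.03 over all tested miRNAs.

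miR-322-3p had 202 to 263 CPM in AM608 (median 225), against 131 to 185 CPM in RCD (median 163). Every AM608 library lay above every RCD library, a separation found for 17 of the 421 miRNAs (4.04%). The log2 fold change was 0.53 ± 0.077 (SE, adjusted p = 8.2e-06, edgeR), a ratio of 1.44. Leaving out each library in turn gave 0.49 to 0.58, and 0.50 was found without RCD libraries 3 and 8.

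miR-351-5p had 134 to 183 CPM in AM608 (median 174), against 73.3 to 137.4 CPM in RCD (median 122). Of the AM608 libraries, 7 of 8 lay above every RCD library, and RCD libraries 3 and 5 were the lowest of the lean livers. The log2 fold change was 0.57 ± 0.11 (SE, adjusted p = 0.000279, edgeR), a ratio of 1.48. Without RCD libraries 3 and 8 it was 0.485 and was still called.

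The 3p arms of both neighbouring hairpins were higher as well. miR-351-3p had 1.58 to 2.75 CPM in AM608 and 0.589 to 1.80 CPM in RCD, a few CPM in either group, with a log2 fold change of 0.77 ± 0.20 (SE, adjusted p = 0.00539, edgeR). It was 0.66 without RCD library 3, 0.73 without RCD library 8 and 0.59 without both, and was still called each time. That call was lost without the filter on low counts (adjusted p = 0.0667, edgeR). miR-503-3p had 28.6 to 37.9 CPM in AM608 and 18.8 to 31.4 CPM in RCD, with a log2 fold change of 0.45 ± 0.11 (SE, adjusted p = 0.00295, edgeR). That of miR-503-3p was 0.49 without RCD library 3, 0.42 without RCD library 8 and 0.45 without both, and was still called each time. The ranges of both arms overlapped, with 6 of 8 AM608 libraries above every RCD library for each.

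miR-503-5p itself had 5.50 to 9.39 CPM in AM608 (median 7.91), against 3.86 to 7.42 CPM in RCD (median 6.48). Although 6 of 8 AM608 libraries lay above every RCD library, the log2 fold change of 0.33 ± 0.13 did not pass (SE, adjusted p = 0.0628, edgeR). It passed without AM132 library 2 (adjusted p = 0.0493), AM608 library 1 (0.0252), AM608 library 4 (0.0299) or RCD library 3 (0.0317), and without RCD libraries 3 and 8 together (0.0462). At 27 to 89 counts per library across AM608 and RCD it is the least deeply sampled member. miR-542-3p, miR-450b-5p and miR-450a-1-3p had log2 fold changes of 0.33, 0.47 and 0.38 and were not called.

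miR-322-5p, cut from the same hairpin as miR-322-3p, was not called. It had 11.9 to 18.03 CPM in AM608 (median 13.5), against 9.03 to 30.5 CPM in RCD (median 15.0). Its log2 fold change was −0.19 ± 0.18 (SE, adjusted p = 0.467, edgeR), and the 95% interval of −0.54 to 0.17 ends below the 0.38 at which the interval of miR-322-3p begins. Without RCD library 8 it was 0.030, and without RCD libraries 3 and 8 it was 0.12 (adjusted p = 0.508, edgeR), so its sign rests on library 8. The intervals come from the same libraries and do not test the arms against each other. The ratio of the arms, described below, was called with all libraries (adjusted p = 0.0428, exact permutation). Without RCD libraries 3 and 8 it was not (log2 difference −0.35, adjusted p = 0.075, exact permutation).

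The biliary sum had a median of 1978 CPM in AM608 and 1318 CPM in RCD, with 1 of 5 markers, mmu-miR-200c-3p, called higher (log2 fold change 0.48, adjusted p = 0.0256, edgeR). The endothelial pair of miRNAs summed to between 41240 and 47920 CPM in AM608 and between 28540 and 43230 CPM in RCD, with 1 of 2, mmu-miR-126a-3p, called higher (log2 fold change 0.29, adjusted p = 0.0104, edgeR). That sum is almost all miR-126a-3p, with an AM608 median of 42600 CPM. miR-126a-5p was not called, with medians of 804 CPM in AM608 and 811 CPM in RCD. The median log2 fold change of the endothelial pair was 0.06. Called lower in AM608 were 1 of 5 mesenchymal markers, mmu-miR-145a-5p (log2 fold change −0.65), 1 of 3 tested muscle markers and 3 of 4 tested neuronal markers. The median log2 fold change of the mesenchymal list was 0.12. In that list miR-199a-3p, miR-199a-5p and miR-214-3p had higher median levels in AM608, and miR-143-3p a lower one. Without RCD library 3 the neuronal list had 2 called higher and 2 lower, the muscle list had 0 called, and the endothelial, biliary and mesenchymal counts were the same. The part of these cell types in the difference of miR-322-3p and miR-351-5p was not tested.

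The other guides with the AGCAGCA seed had log2 fold changes below 0 in AM608 against RCD, from −0.46 for miR-15a-5p to −0.07 for miR-15b-5p, and none was called. miR-16-5p had 841 to 1014 CPM in AM608, against 737 to 1829 CPM in RCD, a log2 fold change of −0.26 ± 0.13 (SE, adjusted p = 0.165, edgeR). RCD libraries 8 and 5, with 1829 and 1396 CPM, lay far above every AM608 library, and the other RCD libraries had at most 1044 CPM. Without RCD library 8 the log2 fold change was −0.091 for miR-16-5p and −0.075 for miR-15a-5p, but 0.073 for miR-15b-5p and 0.078 for miR-195a-5p, so the shared direction was lost without that library. It was also lost without RCD library 5, where that of miR-15b-5p was 0.0026. The adjusted p of miR-16-5p over all omissions of a single library ran from 0.0551 to 0.53 (edgeR). miR-103-3p and miR-107-3p, whose seed overlaps the family's with an offset, were called higher in AM608 (log2 fold changes 0.38 and 0.81).

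AM132 against RCD sets the obese liver treated against miR-132 beside the lean one. Diet, injection and the effect of the oligonucleotide cannot be told apart in it. Of the 8 members 1 was called, miR-322-3p, higher in AM132, against 34.2% of all tested miRNAs called in either direction and 15.4% called higher, so the members' share was no larger than that of all miRNAs. It had 164 to 204 CPM in AM132 and 131 to 185 CPM in RCD, with a log2 fold change of 0.22 ± 0.077 (SE, adjusted p = 0.033, edgeR). The groups overlapped, with 4 AM132 libraries above every RCD library. The call was lost with any of 13 single libraries left out (AM132 1, 2 and 7, AM608 2, 3, 4, 6, 7 and 8, and RCD 2, 3, 4 and 8), and with library totals the log2 fold change was 0.03 (adjusted p = 0.849, edgeR). Over all miRNAs the calls were 65 higher and 79 lower, and 27 higher and 105 lower with library totals, where the median moved by −0.19.

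miR-351-5p was at 105 to 149 CPM in AM132 and 73.3 to 137.4 CPM in RCD and was not called (log2 fold change 0.18 ± 0.11, SE, adjusted p = 0.208, edgeR). miR-503-5p had a log2 fold change of 0.21 (adjusted p = 0.232, edgeR). miR-15b-5p had 57.7 to 106 CPM in AM132 and 51.6 to 112 CPM in RCD, a log2 fold change of 0.33 ± 0.15 (SE, adjusted p = 0.0827, edgeR). It passed without RCD library 8 (0.44, adjusted p = 0.0135) and without AM132 library 1 (0.40, adjusted p = 0.029), and was 0.11 with library totals (adjusted p = 0.702, edgeR). The other seed-sharing guides had log2 fold changes from −0.19 to −0.14 and were not called. Without RCD library 8 that of miR-15a-5p was 0.19 and that of miR-195a-5p 0.020, so the sign of both rests on that library.

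Of 11 arms of the X-linked cluster, 6 were called higher in AM132 than in RCD and 0 lower, with a median log2 fold change of 0.21, against 0.03 over all tested miRNAs. Besides miR-322-3p these were miR-450a-1-3p (0.67), miR-450b-5p (0.65), miR-351-3p (0.55), miR-503-3p (0.35) and miR-450a-5p (0.20). All 6 calls were lost with library totals, and all 6 without the filter on low counts. With only these 2 groups in the fit all but that of miR-450a-1-3p were lost. The count of arms called higher was 3 without RCD library 2, 3, 4 or 8, without AM132 library 2, without AM608 library 2, 3, 4, 6 or 7, or without RCD libraries 3 and 8 together, and 2 without AM608 library 8. It stayed at 6 only without AM132 library 5, AM608 library 1 or RCD library 1, and was 4 or 5 without any other single library. The calls of miR-351-3p and miR-450a-5p were lost in 18 and 17 of the 24 omissions of a single library, and that of miR-503-3p without AM608 library 8 or RCD library 4. Among partner arms of the family, miR-195a-3p was lower in AM132, with 15.2 to 32.0 CPM in AM132 and 21 to 43.9 CPM in RCD (log2 fold change −0.51 ± 0.17, SE, adjusted p = 0.0233, edgeR). That call was lost without AM132 library 5, 6 or 8.

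Among the marker lists, 2 of 4 hepatocyte markers and 1 of 2 endothelial markers, mmu-miR-126a-3p (log2 fold change 0.36), were called higher in AM132 than in RCD. miR-126a-5p was not called, with medians of 785 CPM in AM132 and 811 CPM in RCD. The median log2 fold change of the endothelial pair was 0.09. Called lower were 2 of 5 mesenchymal, 1 of 3 tested muscle and 3 of 4 tested neuronal markers, and 0 of 5 biliary markers were called. Without RCD library 3 the neuronal list had 2 called lower, the biliary list 1 lower and the muscle list 0, and the other counts were the same. The part of these cell types in the cluster's difference was not tested.

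**Figure D2:**
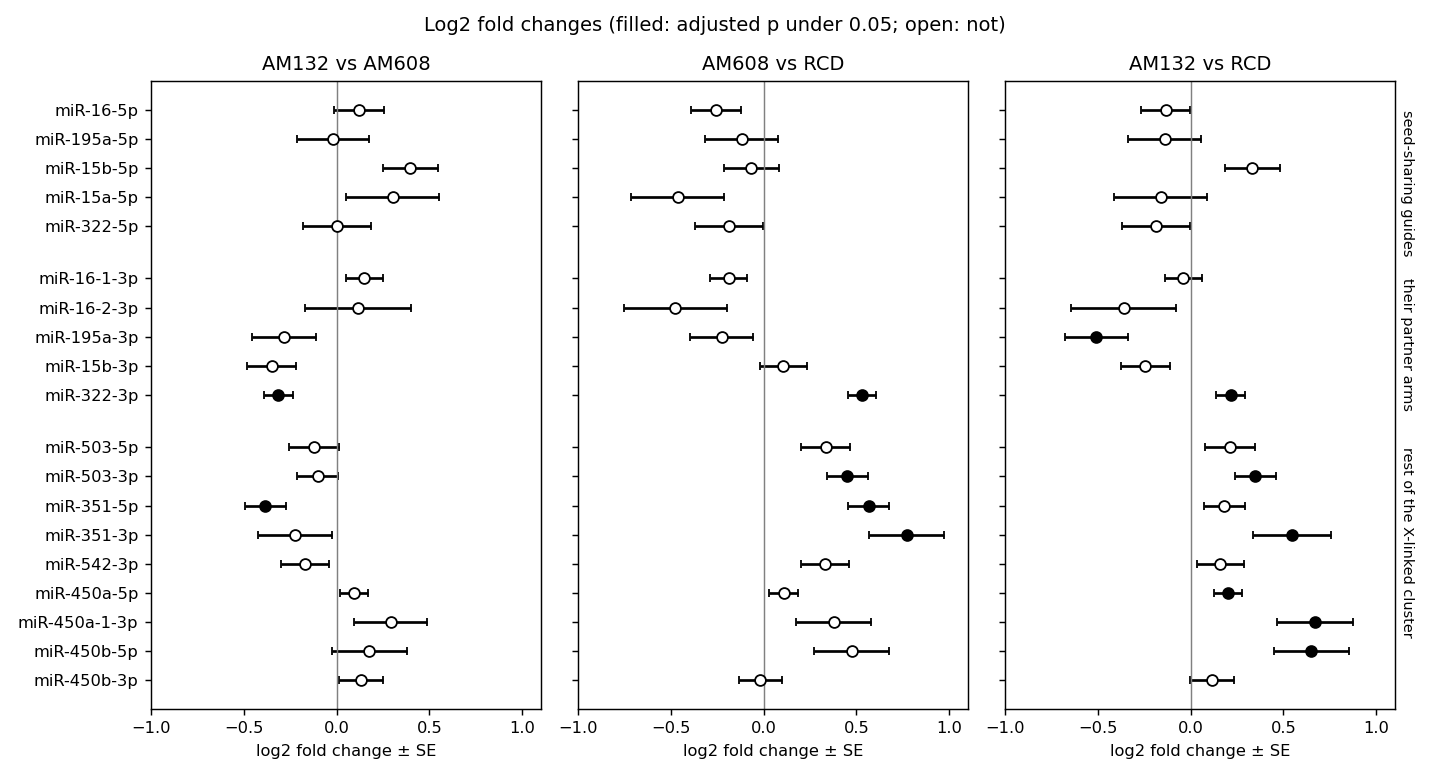
Log2 fold change ± SE (edgeR) of the seed-sharing guides, their partner arms and the rest of the X-linked cluster in AM132 vs AM608, AM608 vs RCD and AM132 vs RCD. Filled points have an adjusted p under 0.05: miR-322-3p is filled in all 3 panels, and no seed-sharing guide is filled in any. miR-322-3p is drawn with the partner arms, although it is the more abundant arm of its hairpin.

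The 5 measured guides with the AGCAGCA seed summed to 1212 ± 127 CPM in AM132, 1109 ± 56.5 CPM in AM608 and 1306 ± 440 CPM in RCD (mean ± SD, n = 8 each). This sum gets no test, and its order across groups depended on the scaling and on 1 library. With library totals it was 1103 CPM in AM132, 1193 CPM in AM608 and 1365 CPM in RCD, so AM132 was below AM608. Without RCD library 8 the RCD sum was 1172 CPM, below that of AM132. miR-16-5p made up 81.1% of it in AM132, 81.5% in AM608 and 82.6% in RCD. miR-195a-5p gave 8.55%, 9.56% and 8.88% in the same order of groups, miR-15b-5p 7.36%, 6.06% and 5.50%, and miR-15a-5p and miR-322-5p under 2% each. RCD library 8, with a sum of 2244 CPM, accounted for most of the RCD spread, and the next RCD library had 1659 CPM.

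The arms of a hairpin are read in the same library, so their ratio does not depend on the scaling between libraries. This ratio was examined after the levels had been seen. It was computed for the 5 hairpins with both arms tested, and the log2 ratios were tested with an exact permutation test, two-sided, over the 12870 assignments of 8 against 8 libraries, adjusted over 15 tests. The smallest p such a test can give is 0.000155.

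In the Mir15b hairpin shown above, the 5p guide exceeded its 3p partner by more in AM132 than in either other group. The ratio of 5p to 3p counts had a median of 4.24 in AM132 (3.36 to 4.62), of 2.45 in AM608 (2.18 to 2.91) and of 2.82 in RCD (1.79 to 3.96). Every AM132 library lay above every AM608 library. Ratios of hairpins outside this set were not examined, so how common such a separation is among hairpins was not measured. The mean log2 difference was 0.74 ± 0.074 (SE), a 1.67-fold higher ratio, with p at the smallest possible value (exact permutation, adjusted p = 0.00232). Against RCD the difference was 0.58 ± 0.13 (SE, adjusted p = 0.00349, exact permutation), and the ranges met only through RCD library 8 at 3.96.

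The levels behind the Mir15b ratio moved in opposite directions without either passing alone. miR-15b-3p had 17.2 to 26.7 CPM in AM132 (median 21.3), against 23.96 to 33.4 CPM in AM608 (median 26.3), and 7 of 8 AM132 libraries lay below every AM608 library. Its log2 fold change was −0.35 ± 0.13 (SE, adjusted p = 0.0792, edgeR), beside 0.40 for miR-15b-5p. Leaving out each library in turn kept the difference in the ratio between 0.71 and 0.78. The adjusted p was 0.00232 each time (exact permutation). Full separation of the 2 groups fixes p at its smallest possible value whichever library is left out, so this adds no support. The low 5p level of AM132 library 1 went with a low 3p level of 17.2 CPM, and its ratio of 3.36 was the lowest in AM132 but above all AM608 libraries.

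The same direction appeared at Mir195a and Mir322 with less certainty. The Mir195a ratio was 3.35 to 5.83 in AM132 and 3.45 to 4.41 in AM608, and the log2 difference was 0.28 ± 0.096 (SE, adjusted p = 0.0453, exact permutation). The Mir322 ratio was below 1 in every library, since the 3p arm exceeded the 5p arm by a median of 12.97 times in AM132, 17.8 times in AM608 and 11.2 times in RCD. Its log2 difference was 0.32 ± 0.11 in AM132 against AM608 (SE, adjusted p = 0.0453) and −0.63 ± 0.22 in AM608 against RCD (SE, adjusted p = 0.0428, exact permutation). Both AM132 against AM608 calls were lost with most single libraries left out: for Mir195a any except AM132 1, AM132 7 and AM608 7, and for Mir322 any except AM132 5, AM132 7 and AM608 7. The AM608 against RCD call of Mir322 was lost without any AM608 library except library 7, and without RCD libraries 3 and 8 the difference was −0.35 (adjusted p = 0.075, exact permutation).

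With RCD library 8 left out the Mir195a ratio was higher than in RCD, at log2 differences of 0.61 in AM132 (adjusted p = 0.0062) and 0.33 in AM608 (adjusted p = 0.0326, exact permutation), against 0.40 and 0.12 with it, neither called. Without RCD libraries 3 and 8 the difference in AM132 was 0.57 (adjusted p = 0.0117, exact permutation). That in AM608 was called only when RCD library 8 alone was left out.

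Mir503 and Mir351 showed no called difference in the ratio with all libraries. Without RCD library 5 the Mir351 ratio was lower in AM132 than in RCD (log2 difference −0.48, adjusted p = 0.042, exact permutation). The 3p arm of Mir503 exceeded the 5p arm by medians of 4.14 times in AM132, 4.30 times in AM608 and 3.88 times in RCD. Mir351 was strongly 5p-sided, with median ratios of 73.6, 79.2 and 88.4 in AM132, AM608 and RCD. The miR-16 hairpins cannot be given a ratio, since both yield the same miR-16-5p, but their 3p arms tell them apart. miR-16-1-3p, from the Dleu2 locus, had medians of 41.9 CPM in AM132, 38.7 CPM in AM608 and 44.3 CPM in RCD. miR-16-2-3p, from the Smc4 locus, had 1.51, 1.41 and 1.88 CPM in those groups, and neither was called in any comparison.

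**Figure D3:**
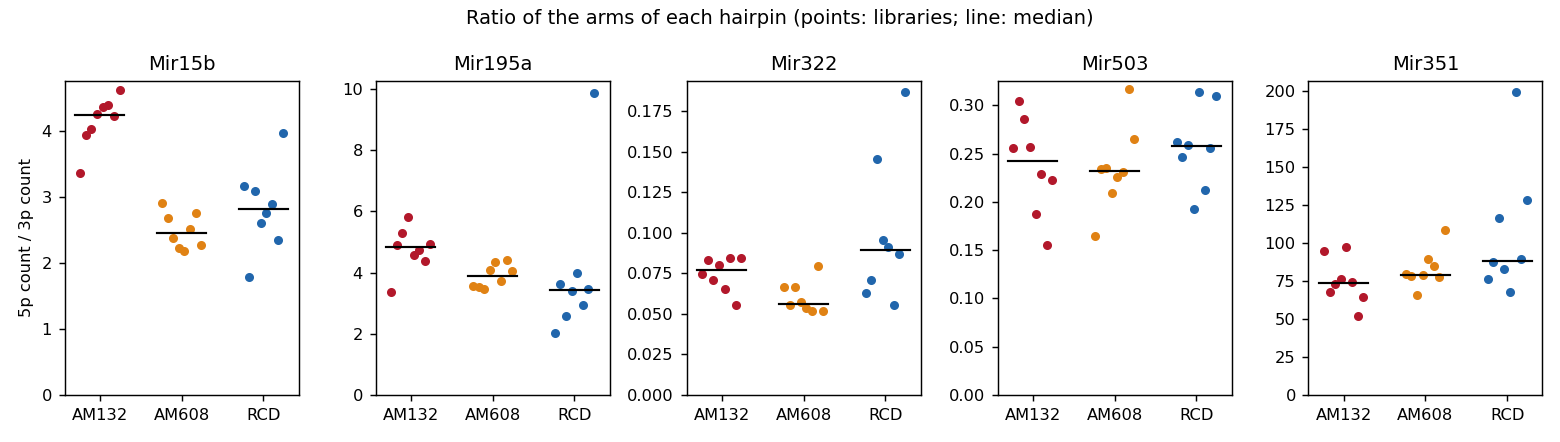
Ratio of 5p to 3p counts (axis from 0) for the 5 hairpins with both arms tested, in AM132, AM608 and RCD libraries; points are libraries and lines are medians. At Mir15b all 8 AM132 points lie above all 8 AM608 points, and RCD library 8 has the highest RCD ratio at Mir15b, Mir195a and Mir322.

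Members that lie in 1 cluster were set against each other across the 24 libraries after each group's mean had been subtracted from log2 CPM, for 6 pairs with both values. Only miR-15a-5p and miR-16-5p, whose hairpins Mir15a and Mir16-1 are neighbours in Dleu2, moved together beyond adjustment (Pearson r = 0.961, Spearman rho = 0.914, adjusted p = 6e-05 for each over the 6 pairs, permutation within groups, at the smallest p that 100000 permutations can give). Without RCD libraries 8 and 3, those farthest from the median, r was 0.903. miR-15b-5p and miR-16-5p had r = 0.568 and rho = 0.417 (adjusted p = 0.0933 and 0.224, permutation), and r = 0.359 without RCD library 8 and AM132 library 1. With library totals this pair passed (r = 0.734, adjusted p = 0.0022, permutation), as it did without RCD library 3 and AM132 library 8 (r = 0.743, adjusted p = 0.0134, permutation). A high r with miR-16-5p was not particular to its neighbours in the genome. miR-30b-5p, miR-126a-5p and miR-19b-3p, which are not in these clusters, had r of 0.934, 0.925 and 0.906 with it.

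In the X-linked cluster no pair passed on the TMM scale. The arms of Mir322 had r = −0.0158 and rho = 0.0861 (adjusted p = 0.952 and 0.847, permutation). miR-322-5p had r = 0.138 with miR-503-5p and −0.308 with miR-351-5p, and miR-503-5p had r = −0.0805 with miR-351-5p (rho 0.264, −0.317 and 0.00348; adjusted p of r 0.862, 0.624 and 0.884, permutation). Leaving out the 2 libraries farthest from the median gave r of −0.0415, 0.354, −0.442 and −0.163 for these 4 pairs. With library totals 2 of these pairs passed, the Mir322 arms at r = 0.575 (adjusted p = 0.0022, permutation), where the sign turned, and miR-322-5p with miR-503-5p at r = 0.527 (adjusted p = 0.0285, permutation). The other pairs turned sign without passing, with r = 0.197 for miR-322-5p with miR-351-5p and r = 0.276 for miR-503-5p with miR-351-5p.

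Within RCD, library 8 was high for the AGCAGCA guides together and not for the other members. Against the RCD median its log2 CPM was 1.81 higher for miR-15a-5p, 1.02 for miR-322-5p, 0.97 for miR-195a-5p, 0.93 for miR-16-5p and 0.86 for miR-15b-5p. The deviation was 0.00094 for miR-322-3p, −0.15 for miR-503-5p and −0.12 for miR-351-5p. Among 3p arms it was 0.14 for miR-15b-3p, −0.31 for miR-16-1-3p and −0.63 for miR-195a-3p, and 0.83 for miR-16-2-3p, which rests on 5 to 23 counts per RCD library. Over all tested miRNAs 6.65% lay more than 1 log2 unit above the group median in this library, and 5.70% more than 1 below. A high level in this library was not particular to the AGCAGCA guides. miR-126a-5p had 1974 CPM in it, against at most 971 CPM in the other RCD libraries, while miR-126a-3p had its lowest RCD level there (26560 CPM).

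**Figure D4:**
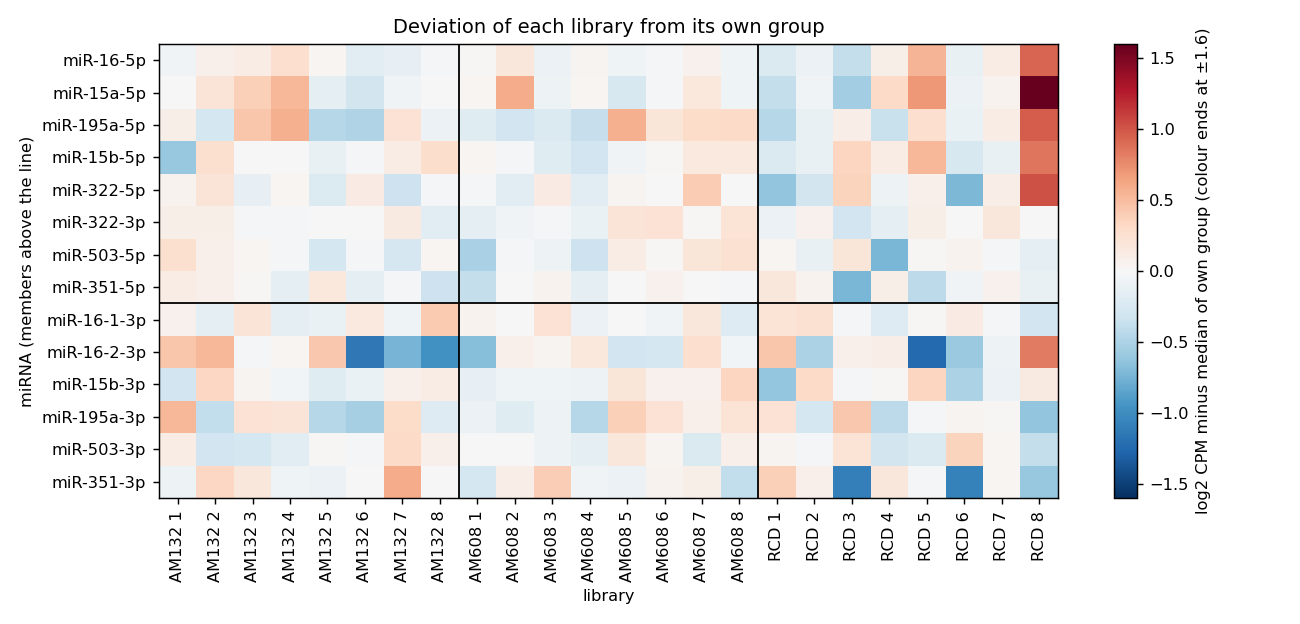
Log2 CPM of each library minus the median of its own group, for the 8 measured members (above the line) and 6 partner arms (below), libraries AM132 1 to 8, AM608 1 to 8 and RCD 1 to 8. The column of RCD library 8 is darkest for miR-15a-5p (1.81) and raised for the other AGCAGCA guides, while miR-322-3p, miR-503-5p and miR-351-5p stay near 0.

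By pattern over the 24 libraries with group means removed, the miRNAs most like miR-16-5p among 420 others were miR-30b-5p (Pearson r = 0.934, Spearman rho = 0.786), miR-126a-5p (0.925 and 0.818) and miR-19b-3p (0.906 and 0.772). Without RCD libraries 3 and 8 the r values were 0.826, 0.81 and 0.772. Those most like miR-322-5p were miR-335-5p (r = 0.70, rho = 0.513), miR-137-3p (0.67 and 0.40) and miR-106b-5p (0.664 and 0.363), and without those libraries r was 0.466, 0.288 and 0.456. These were picked as the highest values, so no p is given, and the points share library scaling.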

How the data were processed

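The authors deposited raw read counts per mature miRNA for 24 liver libraries. Per the labels' protocols, libraries came from 300 ng of total RNA (NEBNext small RNA kit) on a NextSeq 500. Per the submitters' processing notes FastQC was used. Which aligner, trimming and build produced the counts is not given in the sources used here, so how reads that match several miRNAs were handled is unknown. Groups were taken from sample titles. The test was edgeR 4.0.16's quasi-likelihood test in R 4.3.3: filterByExpr, TMM factors, robust quasi-likelihood fit, group as the only term, all 24 libraries, Benjamini-Hochberg over 421 miRNAs. An interval of 95% is the log2 fold change plus or minus a normal multiple of its SE. Log2 CPM for correlations, and the counts of both arms in log2 ratios, used a prior count of 0.5. Alternatives used DESeq2 1.42.0, limma 3.58.1 (voom), other scalings, other filters, a replicate term and left-out libraries. Permutation tests ran in Python 3.11.15, with ranks from SciPy 1.17.1. No replicates looked like 1 library counted again (lowest chi-square per degree of freedom 25.7 over 84 pairs). The fit was tested on simulated data with planted changes larger than those of the called members, so that test does not cover changes of their size. Members and lists were chosen with earlier results of these data known. The named miRNAs are all members, their partner arms, cluster neighbours and seed relatives, and the 3 most similar miRNAs of miR-16-5p and of miR-322-5p. Without molecular identifiers, counts include PCR copies. The table of transfer RNA fragments was not used here.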

Additional observations from a re-analysis of the deposited data

Results flagged for a closer look

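Among 66 groups of 8 values examined, 4 held a library whose gap to its nearest neighbour was large for the range of its group, where chance gives about 1 in 20. miR-15b-5p in AM132 library 1 was low at 57.7 CPM. miR-503-5p in RCD library 4 was low at 3.86 CPM, on 27 counts. miR-450a-1-3p in AM608 library 5 was low at 1.34 CPM. The 5p to 3p ratio of Mir195a was high in RCD library 8, at 9.88, with the next RCD library at 4.00.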

How the results depend on the processing

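In AM608 against RCD both called members kept their call under all 34 alternatives. In AM132 against AM608 both were called under 33 of 34, and 0 members without the filter on low counts. In AM132 against RCD 0 members were called with relative log expression (RLE) factors, library totals, no filter, a mean of at least 10 CPM, only 2 groups in the fit, or without RCD 3 and AM132 8, and 0 to 1 when single libraries were left out; the cause was not tested. Calls over all miRNAs numbered 91 with library totals and 87 with only 2 groups in AM132 against AM608, and 94 at a mean of at least 10 CPM in AM132 against RCD. The seed sum with library totals was 1103 CPM in AM132 and 1193 CPM in AM608, the other way round from TMM. Uncalled log2 fold changes near 0 changed sign. For miR-322-5p in AM132 against AM608 the values were −0.00065 (RLE), −0.25 (library totals), −0.0038 (no filter), −0.012 (mean CPM), −0.029 (2 groups), −0.0021 (DESeq2), −0.00071 (limma voom), −0.028 (without RCD 3 and AM132 8) and −0.024 (without RCD 3 and RCD 8). miR-16-5p in that comparison was −0.12 with library totals. miR-15a-5p in AM132 against RCD was 0.023 with limma voom. Without RCD 3 and RCD 8, chosen after the data were seen, AM132 against RCD gave 0.12 for miR-15a-5p, 0.050 for miR-195a-5p and 0.0975 for miR-322-5p, and AM608 against RCD gave 0.125 for miR-15b-5p, 0.098 for miR-195a-5p and 0.12 for miR-322-5p. Leaving out single libraries gave −0.31 to 0.19 for miR-15a-5p in AM132 against RCD and −0.11 to 0.073 for miR-15b-5p in AM608 against RCD. For miR-195a-5p it gave −0.11 to 0.064 in AM132 against AM608, −0.20 to 0.078 in AM608 against RCD and −0.23 to 0.020 in AM132 against RCD. For miR-322-5p it gave −0.066 to 0.040 in AM132 against AM608 and −0.27 to 0.030 in AM608 against RCD, and for the Mir503 ratio −0.064 to 0.088 in AM132 against AM608. Without RCD 3 and AM132 8, with library totals and without RCD 3 and RCD 8, r was 0.130, 0.575 and 0.214 for the Mir322 arms and 0.173, 0.276 and 0.132 for miR-503-5p with miR-351-5p. With library totals r was 0.734 for miR-15b-5p with miR-16-5p, 0.527 for miR-322-5p with miR-503-5p and 0.197 for miR-322-5p with miR-351-5p, and the first of these was 0.743 without RCD 3 and AM132 8 and 0.504 without RCD 3 and RCD 8. Same-numbered libraries did not meet the bar for pairing, a correlation over 0.1 in every pair (medians 0.047 for AM132 with AM608, 0.14 for AM608 with RCD and −0.073 for AM132 with RCD; the lowest were −0.363, −0.145 and −0.124), and 2, 4 and 1 of 8 correlated best with their own number. AM608 with RCD, at 0.14 against −0.023 for other numbers, gives a hint of shared deviation. A replicate block gave 47 calls over all miRNAs for AM132 against AM608, and 109 for AM608 against RCD, changed no member's call (miR-351-5p in AM132 against AM608 at adjusted p = 0.0497, edgeR) and turned miR-195a-5p to 0.00061 in AM132 against AM608. The depth of miR-503-5p (27 to 89 counts per library) and miR-351-3p (3 to 21 counts) limits their precision.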
